A study of Mus musculus with 14 samples.

Results

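Mouse bone marrow-derived dendritic cells given the solvent DMSO and then CpG oligonucleotide were compared with cells given DMSO and then tumour necrosis factor alpha (TNF). The comparison rests on 4 of the 14 arrays of the study, 2 with CpG and 2 with TNF, and the arrays were taken by their labels. Replicate 1 of each stimulus belongs to the first and replicate 2 to the second of 2 independent experiments, so CpG and TNF were compared within each experiment. The cells were grown from BALB/c marrow progenitors for 8 days in recombinant granulocyte-macrophage colony-stimulating factor, with feeding on days 3 and 6. Cells called solvent-treated received 0.01% DMSO for 1 h, and then CpG (25 µg/mL), TNF (500 U/mL) or no stimulus. The other groups received 5 µM CLIK148, a cathepsin L inhibitor, or 5 µM CA074Me, a cathepsin B inhibitor, before no stimulus, and CLIK148 also before CpG and CA074Me also before TNF. The sources used here do not state how long the stimulus lasted, how many mice gave marrow or whether marrow was pooled. No group of untreated cells without DMSO was analysed, so every solvent group carries the solvent.

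CpG oligonucleotides are taken up into endosomes and bind Toll-like receptor 9, which signals through the adaptor MyD88 to NF-kB, to MAP kinases and to the interferon regulatory factors Irf5 and Irf7. TNF binds Tnfr1 and Tnfr2 at the cell surface and reaches NF-kB through TRAF and RIP proteins, without MyD88. Both stimuli mature dendritic cells, and the study labels CpG as a stimulus of Th1-associated mediators and TNF as one of Th2-associated mediators. The comparison asks how the transcripts of these cells differ between the stimuli when no cathepsin is inhibited.

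Levels are log2 array values, so a difference of 1 is a 2-fold difference, and a difference is always CpG minus TNF. The array measured 18193 named genes, and 12192 of them passed a filter on dim genes. Over all tested genes the arrays of CpG and TNF correlated with r = 0.975 in experiment 1 and 0.995 in experiment 2, while the 2 CpG arrays correlated with 0.961 and the 2 TNF arrays with 0.978. The spread of the differences over genes was correspondingly wider in experiment 1, with an SD of 0.39 against 0.17 in experiment 2. The median difference over all genes was -0.03 (-0.06 in experiment 1 and 0.02 in experiment 2), and 42.6% of genes lay above 0.

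Cells given CpG had 42 transcripts higher and 11 lower than cells given TNF. Among the called genes, those that rose most encode the receptor Gpr31b, the chemokine Ccl1, the NF-kB cofactor Nfkbiz and the adaptor Stap1, and the one that fell most encodes the scaffold protein Cass4. The called genes, those with an adjusted p under 0.05 in limma with the experiment as a block, made up 0.435% of the 12192 tested, 0.344% higher and 0.0902% lower, and 11 differed at least 2-fold. An unadjusted p under 0.05 was found for 15.7%. At 0.435%, a count of 0 called in a short gene list is near the share of all genes. Without the replicate block, that is without pairing the arrays by experiment, Siah2 alone was called (adjusted p = 0.00333). The count also turned on single arrays: 1211 genes were called without the CpG array of experiment 2, 3 without that of experiment 1 (Siah2, Stap1 and Pim2), Siah2 alone without the TNF array of experiment 1, and Siah2, Stap1 and Pim2 again without that of experiment 2.

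**Figure D1:**
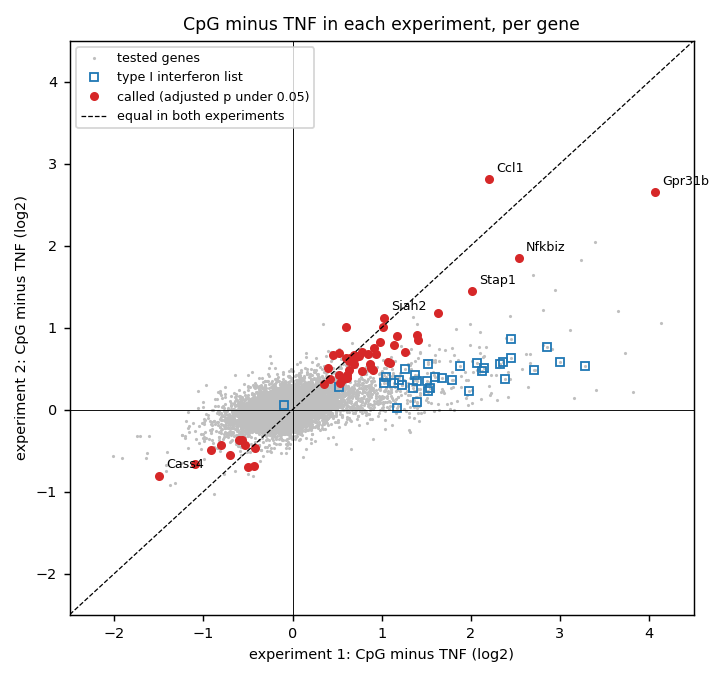
Each point is a tested gene, with its CpG minus TNF difference (log2) in experiment 1 on the horizontal axis and in experiment 2 on the vertical axis; red points are the 53 called genes, blue squares the 34 tested genes of the type I interferon list, and the dashed line marks equal differences. The interferon genes lie far below the line, with a median of 1.57 in experiment 1 and 0.39 in experiment 2. The called genes lie nearer to it, which the test itself favours, and in 43 of the 53 the difference of experiment 1 was larger.

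Gpr31b, a G-protein-coupled receptor, stood at 11.27 and 10.50 with CpG in experiments 1 and 2, at 7.20 and 7.85 with TNF, and at 7.30 and 7.71 in solvent alone. Its CpG arrays lay far above all the others, and its TNF arrays lay beside those of solvent. The difference was 3.36 ± 0.44 (limma SE, 2 arrays a group), a 10.2-fold difference (adjusted p = 0.0255), and it was 4.06 in experiment 1 and 2.65 in experiment 2. Every ± is such an SE, with a spread estimated over all 7 groups and 14 arrays and not over the 4 compared arrays alone. Nfkbiz encodes a nuclear IkB protein that NF-kB needs as a cofactor to transcribe a subset of its targets, among them Il6 and Il12b. It measured 14.14 and 13.49 with CpG, 11.60 and 11.64 with TNF and 11.20 and 11.39 in solvent. The difference of 2.19 ± 0.27 was a 4.57-fold one (adjusted p = 0.018), and CpG stood 2.52 above solvent where TNF stood 0.32 above it. Stap1, an adaptor of tyrosine kinase signalling, was at 12.24 and 12.62 with CpG and at 10.23 and 11.17 with TNF, below its 10.55 and 11.52 in solvent. It differed by 1.73 ± 0.14 (adjusted p = 0.00314), and the groups did not overlap. Siah2, a ubiquitin ligase known from the hypoxia response, had the smallest adjusted p (0.00105): its CpG arrays read 10.51 and 10.60 and its TNF arrays 9.49 and 9.48. The experiments gave it differences of 1.02 and 1.12, almost the same.

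Ccl1, the ligand of the receptor Ccr8 on Th2 and regulatory T cells, stood above solvent with both stimuli. Its levels were 8.66 and 8.44 in solvent, 11.50 and 9.66 with TNF and 13.71 and 12.47 with CpG, so all 3 groups were apart. CpG lay 2.51 ± 0.38 above TNF (5.69-fold, adjusted p = 0.0386), with 2.21 in experiment 1 and 2.81 in experiment 2, the reverse of the order that most genes had. CpG lay 4.54 and TNF 2.03 above solvent. Among 30 tested chemokines and their receptors, Ccl1 was the 1 gene called, and 11 had an unadjusted p under 0.05 (0.435% and 15.7% of all tested genes). The promoter of Ccl1 is shown as that of a called gene with a match to a kappaB-like string, NF-kB being the pathway that both stimuli share. It covers 250 bases before to 50 after the gene's start (RefSeq, GRCm38.p6, chr11:82179763-82180062, minus strand), read 5′ to 3′ along the gene, and capitals mark matches to GGGANNTTCC, a kappaB-like string searched on both strands.

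Ccl1: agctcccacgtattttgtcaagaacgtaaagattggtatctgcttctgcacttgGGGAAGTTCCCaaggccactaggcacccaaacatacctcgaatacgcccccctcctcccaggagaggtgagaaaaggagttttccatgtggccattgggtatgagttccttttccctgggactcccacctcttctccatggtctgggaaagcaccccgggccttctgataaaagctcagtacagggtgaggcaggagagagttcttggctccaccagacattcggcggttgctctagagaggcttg

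It holds 2 matches that overlap, beginning 196 and 195 bases before the start. The string occurs in 5 of the 21 tested chemokine list genes with a promoter in the RefSeq table (23.8%) and in 3 of 19 genes of the NF-kB list (15.8%). It occurs in 1 of 33 called higher genes (3.03%), which is Ccl1 itself, and in 1.8% of the 9873 tested genes with such a promoter. The promoters of Gpr31b and Zc3h12a, also called, hold 0 matches, and Nfkbiz and Siah2 are without an entry in that table. A match is a description of these letters and not of a bound site.

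The other called rises were below that of Stap1. Zfp811, a zinc finger gene, was at 9.12 and 8.84 with CpG against 7.49 and 7.66 with TNF, a difference of 1.41 ± 0.22. Ms4a7, a membrane protein of myeloid cells, was at 11.61 and 11.20 against 10.22 and 10.29 (1.15 ± 0.16). Ern1, which encodes the endoplasmic reticulum stress sensor IRE1 alpha, was at 11.08 and 11.32 against 9.67 and 10.48 (1.13 ± 0.16). In each of these genes both CpG arrays lay above both TNF arrays. Serp1, an endoplasmic reticulum protein also known from the stress response, differed by 0.63 and Hacd3, an enzyme that elongates very long chain fatty acids, by 0.97. Ccdc149 (1.03), Jade2 (1.01), a part of histone acetyltransferase complexes, and Bpgm (0.98), which makes 2,3-bisphosphoglycerate, followed. St8sia6, a sialyltransferase, differed by 0.90, Cptp, a ceramide-1-phosphate carrier, by 0.83, Slc25a12, a mitochondrial aspartate and glutamate carrier, by 0.83, Hsd17b11 by 0.81 and Lad1 by 0.81. Pim2, a kinase that supports survival, was at 8.70 and 9.63 with CpG and at 7.98 and 8.99 with TNF. Its groups overlapped because experiment 2 read higher throughout, yet the paired differences were 0.71 and 0.65 (adjusted p = 0.00314). Ticam1, the TRIF adaptor that Toll-like receptors 3 and 4 use, was at 9.38 and 9.39 against 8.75 and 8.91 (0.56 ± 0.07, adjusted p = 0.018). Rictor, a subunit of mTOR complex 2, and Gfpt1, which commits glucose to hexosamine synthesis, differed by 0.52 and 0.43. Acsl5, which activates fatty acids, differed by 0.46, with CpG at the level of solvent (0.01) and TNF at -0.44 from it.

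Cass4 was at 8.26 and 8.80 with CpG, at 9.76 and 9.61 with TNF and at 9.73 and 9.98 in solvent. CpG arrays lay lowest, and the difference of -1.15 ± 0.14 was a 2.22-fold one (adjusted p = 0.018). Emp2, a tetraspan membrane protein, was at 9.71 and 10.35 with CpG against 10.80 and 11.01 with TNF, a difference of -0.88 ± 0.12. Arpin, an inhibitor of the actin nucleator Arp2/3, was at 8.95 and 9.53 against 9.86 and 10.01 (-0.70 ± 0.11). In Arpin it was TNF that stood apart from solvent, by 0.83, while CpG stood 0.13 above solvent. Dnmt3a, a DNA methyltransferase that sets new marks, differed by -0.62 and Rrm2, the small subunit of ribonucleotide reductase, by -0.60. Rrm2 was lowest with CpG (10.10 and 10.57), intermediate with TNF (10.59 and 11.28) and highest in solvent (11.09 and 11.61). It was the 1 called member of the 30 tested cell cycle genes, whose median was -0.03 (0.0902% of all genes were called lower). Nuak1 and Akap5, a kinase and an anchor of protein kinase A, differed by -0.49 and -0.47. Epcam (-0.63), an adhesion molecule, Hrh1 (-0.56), the histamine H1 receptor, Strbp (-0.48) and Slc1a4 (-0.44), a neutral amino acid transporter, were called with overlapping groups.

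**Figure D2:**
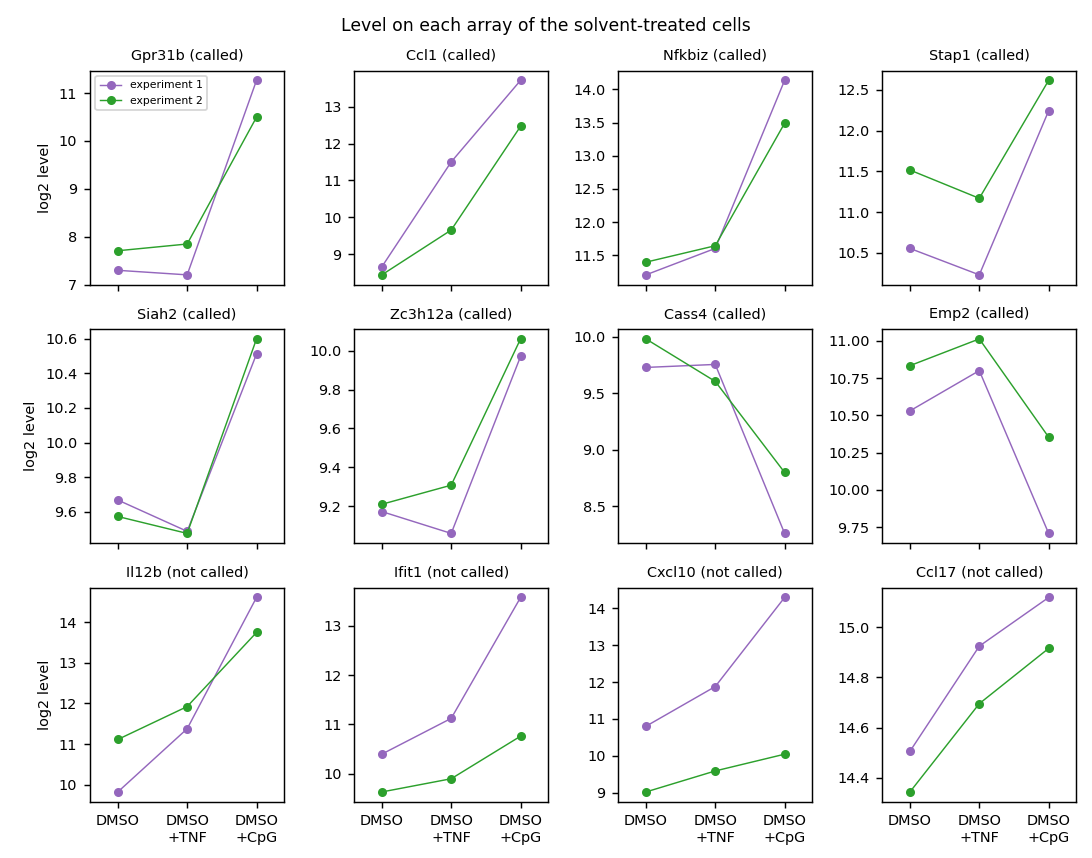
Log2 level of 12 genes on each array of solvent alone, TNF and CpG, with experiment 1 in purple and experiment 2 in green and each panel on its own axis; lines join arrays of 1 experiment. Gpr31b, Nfkbiz, Siah2 and Zc3h12a are high on the CpG arrays alone, Ccl1 has 3 separate levels, and Il12b, Ifit1 and Cxcl10 have a wider gap between CpG and TNF in experiment 1 than in experiment 2.

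Every called gene had the same sign in both experiments, 53 of 53 against 61.2% of all tested genes. Since the genes were called on these values, that count describes them and tests nothing. Over all tested genes 27.3% were higher and 33.9% lower with CpG in both experiments. Both CpG arrays lay above both TNF arrays in 39 of the 42 higher genes, against 13.3% of all genes, and below them in 7 of the 11 lower genes, against 12.5%. The larger difference was that of experiment 1 in 43 of the 53 called genes and in 67.9% of all genes. Ccl1, Siah2, Lad1, Rrm2 and Hrh1 were among the 10 with the larger difference in experiment 2. At the threshold, Cdc42ep2 and Jade2 were just inside, at an adjusted p of 0.0497 for both, and Tes was just outside at 0.0517. In solvent terms the called higher genes stood a median of 0.71 above solvent with CpG and 0.01 with TNF, and the called lower genes stood at -0.50 with CpG and 0.22 with TNF.

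Most of the largest differences did not pass the test. Of 122 genes whose mean difference was at least 2-fold, 111 were higher and 11 lower with CpG, and 11 were called. In 120 of the 122 the difference of experiment 1 was the larger. Itgb8, an integrin subunit that helps activate latent TGF-beta, was at 12.22 and 10.42 with CpG against 8.82 and 8.37 with TNF (2.72 ± 0.60, adjusted p = 0.106). Cd72, a receptor best known from B cells, was at 11.85 and 13.01 against 8.91 and 11.55 (2.20 ± 0.38, adjusted p = 0.0532). The scavenger receptor Marco was at 12.01 and 11.28 against 9.31 and 9.64 (2.17 ± 0.49, adjusted p = 0.111). In all 3 genes both CpG arrays lay above both TNF arrays, although for Cd72 the gap between groups was small. On the lower side Spib, an Ets factor, differed by -1.29 (-2.02 and -0.56, adjusted p = 0.142) and Ddr1, a collagen receptor, by -1.25 (-1.91 and -0.59, adjusted p = 0.28).

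Type I interferon target genes had values above 0 in both experiments, but 0 of them were called. Of 34 tested members of the list, 33 lay above 0 in both experiments, against 27.3% of all genes, and the median difference was 1.01, against -0.03 for all genes. It was 1.57 in experiment 1 and 0.39 in experiment 2. In 17 members both CpG arrays lay above both TNF arrays, against 13.3% of all genes. In limma 29 had an unadjusted p under 0.05, against 15.7% of all genes, and the lowest adjusted p was 0.141. Without the CpG array of experiment 2, which leaves experiment 1 to set the difference, 29 genes of the list were called. Ifi203 was the exception in sign, at -0.02.

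Ifit1, whose protein binds RNA without a methylated cap, was at 13.57 and 10.76 with CpG, at 11.12 and 9.90 with TNF and at 10.40 and 9.63 in solvent. The CpG array of experiment 2 thus lay below the TNF array of experiment 1, and the groups overlapped, while within each experiment CpG was highest. The difference was 1.66 ± 0.55 (2.45 and 0.86, adjusted p = 0.214). Isg20, an exonuclease, was at 13.66 and 10.69 with CpG against 10.37 and 10.16 with TNF (1.91 ± 0.84), its groups apart by a small step. Rsad2, which encodes the antiviral protein viperin, differed by 2.36 in experiment 1 and 0.58 in experiment 2 (1.47 ± 0.58). Ifit2 and Ifit3, from the same family as Ifit1, differed by 1.81 and 1.79. The guanylate binding proteins and immunity-related GTPases, which interferon gamma and type I interferon both induce, had the same sign. Of these, 10 of 10 tested lay above 0 in both experiments, with a median of 1.02 (1.74 and 0.25). In 1 of the 10 both CpG arrays lay above both TNF arrays, against 13.3% of all genes. In limma 0 were called and 4 had an unadjusted p under 0.05 (0.435% and 15.7% of all genes), with a lowest adjusted p of 0.268. Iigp1 differed by 3.15 in experiment 1 and 0.15 in experiment 2, and Gbp6 by 2.64 and 0.27. Ifnb1, the interferon beta gene, was dim, at 8.13 and 7.58 with CpG and 7.50 and 7.44 with TNF (0.38 ± 0.16, adjusted p = 0.287). Of the interferon alpha genes Ifna1 differed by 0.05 ± 0.07 (0.11 and -0.02, limma adjusted p = 0.763), and Ifna2 and Ifna4 were not bright enough to test.

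The promoters of Ifit1 (chr19:34640639-34640938, plus strand), of the interferon list, and Cxcl10 (chr5:92348840-92349139, minus strand), of the Th1-associated and chemokine lists, are shown. They are from RefSeq, GRCm38.p6, over the same window as for Ccl1. Capitals mark matches on either strand to GAAANNGAAA, the repeat at the core of the interferon-stimulated response element that interferon factors bind, and in Cxcl10 also to the kappaB-like string.

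Ifit1: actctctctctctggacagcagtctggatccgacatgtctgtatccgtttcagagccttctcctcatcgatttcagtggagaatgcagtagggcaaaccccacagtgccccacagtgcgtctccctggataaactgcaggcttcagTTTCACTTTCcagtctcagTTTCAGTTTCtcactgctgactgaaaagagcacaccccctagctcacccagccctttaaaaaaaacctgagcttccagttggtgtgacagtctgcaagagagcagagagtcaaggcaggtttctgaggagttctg

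Cxcl10: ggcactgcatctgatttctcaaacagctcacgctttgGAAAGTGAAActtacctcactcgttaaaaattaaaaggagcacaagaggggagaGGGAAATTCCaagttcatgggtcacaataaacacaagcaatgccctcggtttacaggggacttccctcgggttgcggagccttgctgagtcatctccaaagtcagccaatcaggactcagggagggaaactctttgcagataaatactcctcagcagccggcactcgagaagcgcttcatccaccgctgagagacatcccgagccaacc

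Ifit1 holds the repeat on the opposite strand, beginning 104 and 85 bases before the start. Cxcl10 holds the repeat 213 bases and the kappaB-like string 159 bases before the start, without overlap. Such a repeat was present in 13 of the 24 interferon list genes with a promoter in the table (54.2%) and in 6 of 7 GTPase genes (85.7%). It was present in 3.72% of the tested genes with a promoter, in 3.99% of all 27025 genes of the table, and in 1 of 33 called higher genes (3.03%). Ifit1 and Cxcl10 were picked after their values were seen. Cxcl10 is not in the interferon list. In the Th1-associated list the repeat was present in 2 of 11 genes with a promoter (18.2%), and Cxcl9 and Il12b hold 0 matches to either string. Of other genes of the interferon list, Isg20, Ifit2, Cmpk2, Oasl1 and Irf7 hold 0 such repeats, while Ifit3 holds 2 and Rsad2 holds 1.

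Th1-associated mediators had values above 0, again with 0 called and 8 at an unadjusted p under 0.05 in limma (0.435% and 15.7% of all genes). All 19 tested members had a mean above 0, and 17 were above 0 in both experiments, against 27.3% of all genes. The median was 0.80 (1.28 in experiment 1 and 0.24 in experiment 2), and the lowest adjusted p was 0.116. Without the CpG array of experiment 2, 8 of the 19 were called, and the median was 1.26, against 0.13 without that of experiment 1. Il12b, the p40 subunit that interleukins 12 and 23 share, was at 14.61 and 13.75 with CpG, at 11.38 and 11.92 with TNF and at 9.82 and 11.11 in solvent. Its groups were well apart, and the difference was 2.53 ± 0.59 (adjusted p = 0.116). Il12a, the p35 partner that makes interleukin 12, was dim, at 7.83 and 8.06 against 7.33 and 8.03 (0.26 ± 0.17). Ebi3, which pairs with p28 and with p35, was at 14.00 and 13.13 against 12.89 and 12.55 (0.85 ± 0.28).

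The chemokines that draw Th1 cells through Cxcr3 had a wide gap between experiments. Cxcl10 was at 14.29 and 10.04 with CpG and at 11.88 and 9.59 with TNF, so that the CpG array of experiment 2 lay below the TNF array of experiment 1. Its differences were 2.42 and 0.45, those of Cxcl9 2.81 and 0.79, and those of Cxcl11 3.40 and 0.24. Cd40, the receptor for T cell help, was at 14.05 and 12.79 with CpG, at 12.71 and 12.05 with TNF and at 11.17 and 11.01 in solvent (1.04 ± 0.33, adjusted p = 0.206). Within each experiment CpG was highest, TNF intermediate and solvent lowest. The Notch ligand Dll4, at 1.19 and 0.04, and Il15, at 1.28 and -0.02, had values near 0 in experiment 2. Ifng, Tbx21 and Il12rb1 were not bright enough to test.

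Th2-associated mediators had no common direction. Of 24 tested members 12 lay above and 12 below 0, with 8 above and 10 below in both experiments, against 27.3% and 33.9% of all genes. The median was -0.01, which cyclic loess scaling turned to 0.00. In limma 0 were called and 2 had an unadjusted p under 0.05 (0.435% and 15.7% of all genes). The lowest adjusted p was 0.127, that of the interleukin 4 receptor chain Il4ra (-0.26 ± 0.06, with -0.35 and -0.17 in the experiments). Il6, a cytokine listed here for its part in Th2 and follicular help and also a general inflammatory product, was at 14.15 and 12.78 with CpG against 11.34 and 11.57 with TNF (2.02 ± 0.70, adjusted p = 0.233). Its CpG arrays were higher than every TNF and solvent array. Ccl17 and Ccl22, the ligands of Ccr4 on Th2 cells, were near the top of the scale with both stimuli. Ccl17 was at 15.12 and 14.92 with CpG, 14.92 and 14.70 with TNF and 14.51 and 14.34 in solvent, a difference of 0.21 ± 0.10 with an interval from -0.02 to 0.43. Ccl22 was at 15.14 and 14.67 against 14.86 and 14.48 (0.23 ± 0.18). The largest value below 0 was that of the lectin Clec10a, at 8.39 and 8.63 against 8.85 and 8.85 (-0.34 ± 0.23), with both stimuli below the 10.47 and 9.75 of solvent. Tslp read 8.69 on the CpG array of experiment 1, and its other CpG and TNF arrays lay between 6.91 and 6.98. Il33, Il25 and Il5 were not bright enough to test.

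**Figure D3:**
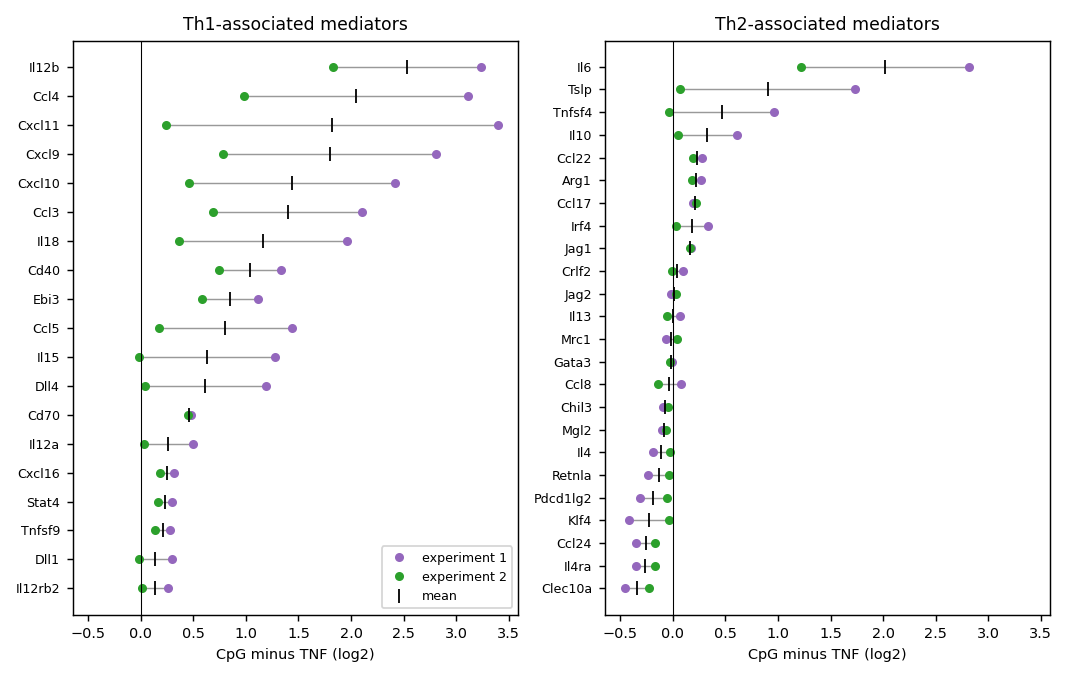
CpG minus TNF (log2) for each tested Th1-associated (left, 19 genes) and Th2-associated (right, 24 genes) mediator, with experiment 1 in purple, experiment 2 in green and the mean as a black tick; genes are ordered by their mean. The Th1-associated means are all above 0 with a median of 0.80, and the Th2-associated means are 12 above and 12 below 0.

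The receptors of the stimuli had small differences, and none of the genes listed for either pathway was called in limma. Tlr9 was dim and level, at 7.70 and 7.73 with CpG against 7.78 and 7.74 with TNF, with an interval of the difference from -0.20 to 0.11. Of 21 tested genes of the Toll-like receptor 9 pathway 0 were called in limma (8 at an unadjusted p under 0.05, against 15.7% of all genes), 13 were above 0 and 4 below in both experiments, and the median was 0.16. Irf7, itself an interferon target, was at 11.92 and 9.88 against 9.78 and 9.36 (1.33 ± 0.50, adjusted p = 0.264). Myd88 differed by 0.45 ± 0.22 and the trafficking chaperone Unc93b1 by 0.36 ± 0.09, the lowest adjusted p of the list (0.12). On the TNF side, Tnfrsf1a was at 11.39 and 11.09 with CpG against 11.15 and 10.93 with TNF (0.20 ± 0.11) and Tnfrsf1b at 12.85 and 12.10 against 12.52 and 12.07 (0.19 ± 0.13). Of 19 tested genes of the TNF receptor pathway 0 were called (10 at an unadjusted p under 0.05, against the same 15.7%), 15 were above 0 and 3 below in both experiments, and the median was 0.25. Map3k8, the kinase Tpl2, differed most, at 0.98 ± 0.25 (adjusted p = 0.139).

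Most NF-kB genes had a mean above 0, 18 against 3 below, where 42.6% of all genes lay above 0. Nfkbiz and Zc3h12a were the 2 called of 21 tested (background 0.435%), and the median was 0.21, with 15 above 0 and 2 below in both experiments. Without the TNF array of experiment 2 the median was 0.13, and without that of experiment 1 it was 0.29. Zc3h12a encodes Regnase-1, a nuclease that degrades cytokine messages such as Il6 and Il12b. It was at 9.97 and 10.06 with CpG, at 9.06 and 9.31 with TNF and at 9.17 and 9.21 in solvent, so TNF lay at the level of solvent. Its difference was 0.83 ± 0.09 (limma adjusted p = 0.0167), while its other bright probe set gave 0.035. The inhibitor Nfkbia was at 14.79 and 14.44 against 14.63 and 14.29 (0.15 ± 0.06, adjusted p = 0.298), and the deubiquitinase Tnfaip3 at 13.16 and 12.57 against 12.76 and 12.38 (0.30 ± 0.20). Relb differed by 0.08 ± 0.07, and Rel, at 0.69 ± 0.20, by 0.98 and 0.39 in the experiments. With either stimulus Relb stood above solvent, by 0.94 with CpG and by 0.86 with TNF, and Nfkbiz stood at 2.52 and 0.32.

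Other signals and maturation genes leaned to CpG in size. Beside the limma counts of each list stand 0.435% called and 15.7% at an unadjusted p under 0.05 over all genes. Over all genes 27.3% were above 0 in both experiments. Among 22 inflammatory cytokines and mediators the median was 0.38 (0.64 and 0.10), with 15 above 0 in both experiments, and 0 called (5 at an unadjusted p under 0.05, lowest adjusted p 0.181). Ptgs2, the inducible cyclooxygenase, was at 12.97 and 11.50 with CpG against 9.24 and 10.81 with TNF (2.21 ± 0.90), and Tnf itself at 13.32 and 10.78 against 11.53 and 10.02 (1.27 ± 0.48). Of 27 tested costimulatory and maturation genes 25 had a mean above 0, the median was 0.28 and 0 were called (9 at an unadjusted p under 0.05, lowest adjusted p 0.0738 for Slamf1). The median was 0.36 in experiment 1 and 0.14 in experiment 2, and it was 0.08 without the CpG array of experiment 1 and 0.50 without that of experiment 2. Cd86, a ligand of Cd28, was at 12.74 and 13.11 against 11.64 and 12.90 (0.66 ± 0.24). Cd83, a marker of maturity, was at 13.61 and 13.53 against 13.50 and 13.44 (0.10 ± 0.16), with solvent at 12.60 and 13.00. All 17 tested genes of class I presentation had a mean above 0 (median 0.21, 14 above 0 in both experiments), but 0 were called (7 at an unadjusted p under 0.05, lowest adjusted p 0.168). Their median was 0.14 without the CpG array of experiment 1 and 0.35 without that of experiment 2, and with the inhibitors 3 of the 17 were above 0 in both experiments. The class I transactivator Nlrc5 was highest at 1.18 ± 0.41 (1.76 and 0.59). The 14 tested class II genes were split, 7 above and 7 below 0, with 0 called (2 at an unadjusted p under 0.05), and Ifi30, the lysosomal thiol reductase, was lowest at 12.01 and 12.92 against 13.43 and 13.44 (-0.97 ± 0.24, adjusted p = 0.13).

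The cathepsins, the targets of the inhibitors used elsewhere in the study, differed little between CpG and TNF in solvent. Of 22 tested cathepsins and cathepsin inhibitors 13 lay above and 9 below 0, and the median was 0.02. In limma 0 were called and 2 had an unadjusted p under 0.05 (0.435% and 15.7% of all genes), with a lowest adjusted p of 0.232. Ctsb was at 13.73 and 13.51 with CpG against 13.60 and 13.36 with TNF (0.14 ± 0.08), and Ctsl at 13.51 and 13.66 against 13.13 and 13.63 (0.20 ± 0.09). Glycolysis and hypoxia genes had small differences of 1 sign: 21 of 22 tested had a mean above 0, and 15 had both CpG arrays above both TNF arrays (13.3% of all genes). The median was 0.16 (0.16 and 0.14). In limma 0 were called and 4 had an unadjusted p under 0.05 (0.435% and 15.7% of all genes), with a lowest adjusted p of 0.153. Slc2a6, a hexose transporter, was highest at 0.41. In solvent terms the glycolysis median was 0.08 with CpG and -0.11 with TNF.

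**Figure D4:**
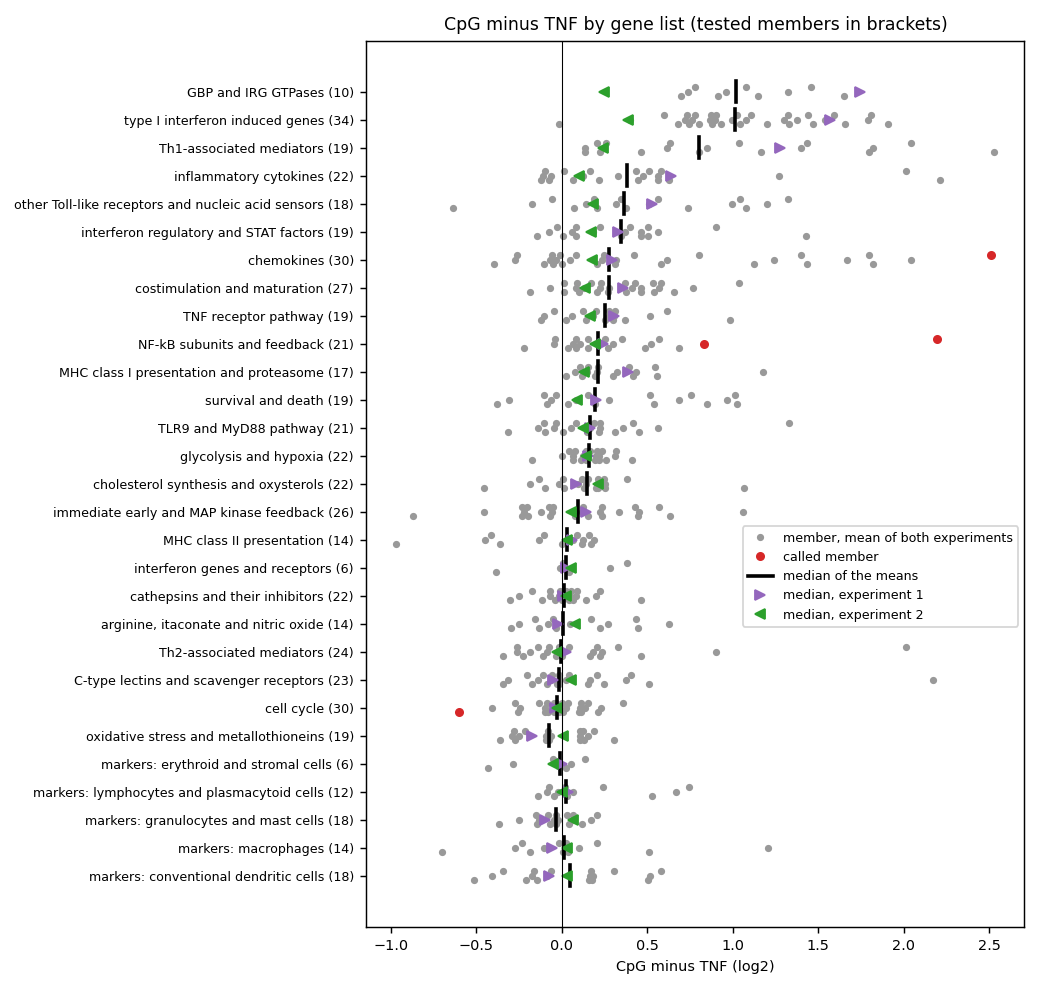
CpG minus TNF (log2) of every tested member of 29 gene lists, with the mean of both experiments as a point (red where called), the median of the means as a black bar, and the medians of experiments 1 and 2 as purple and green triangles. The interferon, GTPase and Th1 lists have medians of 1.01, 1.02 and 0.80 with the triangles far apart, and the marker lists lie between -0.03 and 0.05.

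The marker lists of cell types had medians near 0 between CpG and TNF, while single markers went both ways. In limma 0 were called, and 3 dendritic cell markers, 0 macrophage and 0 granulocyte and mast cell markers and 1 lymphocyte or plasmacytoid marker had an unadjusted p under 0.05. Over all genes these shares were 0.435% and 15.7%. Of 20 listed markers of conventional dendritic cells 18 were tested, 7 above and 7 below 0 in both experiments, and their mean level was 11.32 and 11.50 with CpG against 11.27 and 11.47 with TNF. Itgax, which encodes CD11c, was at 11.44 and 11.30 against 11.71 and 11.14, and Cd74, the invariant chain, between 14.16 and 14.37 on these 4 arrays. Flt3, the receptor for a growth factor of these cells, was at 8.25 and 8.57 against 8.88 and 8.96 (-0.51 ± 0.09, adjusted p = 0.0706). Xcr1, which marks the cross-presenting type, was not bright enough to test. Macrophage markers averaged 11.25 and 11.04 with CpG against 11.18 and 11.02 with TNF, with single markers from -0.70 (C1qa) to 1.21 (Fcgr1, 2.29 in experiment 1 and 0.12 in experiment 2). Markers of granulocytes and mast cells averaged 11.45 and 11.03 against 11.57 and 10.98. Both lists were thus well above the filter, and cultures in granulocyte-macrophage colony-stimulating factor are known to hold such cells. Both lists read higher in experiment 1 than in experiment 2. Markers of lymphocytes and plasmacytoid cells averaged 8.68 and 8.51 against 8.37 and 8.50, with Bst2, also an interferon target, highest at 0.74, and with Cd3g, Cd79a, Pax5 and Ncr1 too dim to test. In such bulk samples fewer cells of a type and less RNA per cell cannot be told apart. The part of the other cell types, and of the gap between experiments, in the gene differences was not tested.

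The arrays of inhibitor-treated cells gave a second look at the same stimuli without a shared array, although CLIK148 went with CpG and CA074Me with TNF, so the inhibitors and the stimuli cannot be told apart there. CLIK148 plus CpG against CA074Me plus TNF called 41 genes (0.336%), 17 higher and 24 lower, and 1 without the replicate block. They shared 19 with the 53 called in solvent, which is 35.8% of the solvent list and 46.3% of the other, and both tests used 1 common estimate of each gene's spread. The inhibitor arrays came from the same 2 experiments as the solvent arrays, so they are not an independent repeat. The 53 genes were also chosen for their differences in solvent, while all tested genes include those of any size. Of the 53 genes 51 kept their sign in both experiments with the inhibitors, against 45.2% of all tested genes. The exceptions were Vrk2 and Slc1a4. Gpr31b was at 11.27 and 10.29 with CLIK148 plus CpG and at 7.25 and 8.05 with CA074Me plus TNF, a difference of 3.13 (adjusted p = 0.037). Nfkbiz was at 14.16 and 13.40 against 11.58 and 11.91 (2.03), and Cass4 at 8.43 and 8.62 against 9.70 and 9.69 (-1.17). These 3 genes nearly repeated their values in solvent.

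The size over the 53 genes was somewhat smaller with the inhibitors, a median of 0.54 in the solvent direction against 0.69, and 48 of the 53 were smaller, where the genes had been chosen for their differences in solvent. Ccl1 read 13.51 and 12.38 with CLIK148 plus CpG and 11.74 and 11.01 with CA074Me plus TNF. Its difference of 1.57 was thus 0.94 ± 0.53 below that in solvent. Lad1 was at 11.55 and 11.37 against 11.23 and 11.32 (0.18, or 0.62 ± 0.17 below the 0.81 in solvent), and Ms4a7 at 0.57 was 0.59 ± 0.23 below. The test of the difference between the comparisons called 0 of the 12192 genes (0%) in limma, with or without the block, and 388 had an unadjusted p under 0.05. The median half-width of the interval of that difference was 0.29 over all genes. The interferon list repeated its gap between experiments, with medians of 1.53 and 0.31 with the inhibitors beside 1.57 and 0.39 in solvent. The Th1 medians were 0.98 and 0.04 with the inhibitors, beside 1.28 and 0.24. Other lists had medians near 0 with the inhibitors: glycolysis -0.03 (0.16 in solvent), the TNF receptor pathway 0.01 (0.25), NF-kB genes 0.01 (0.21), costimulation 0.06 (0.28) and class I presentation 0.07 (0.21).

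**Figure D5:**
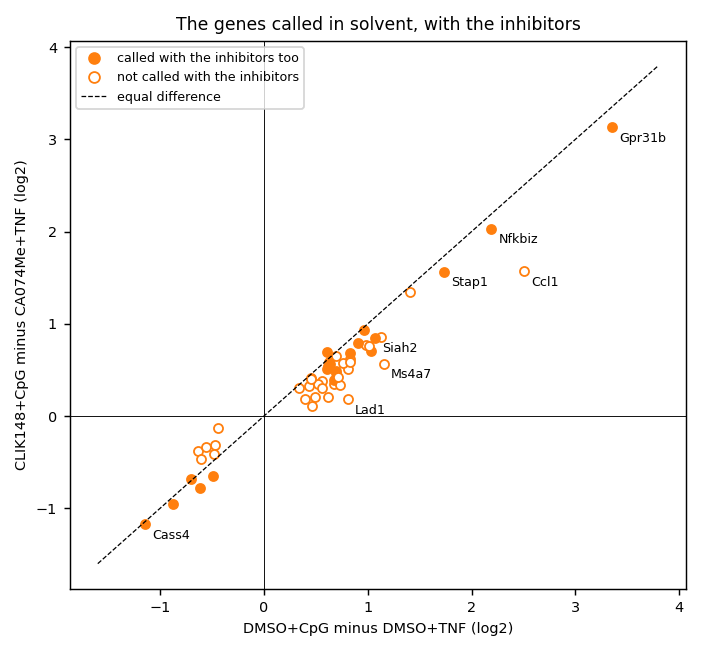
The 53 genes called in solvent, with DMSO+CpG minus DMSO+TNF (log2) on the horizontal and CLIK148+CpG minus CA074Me+TNF (log2) on the vertical axis; filled points are the 19 genes called in both, and the dashed line marks equal differences. Most points lie between the line and 0, with Gpr31b, Nfkbiz and Cass4 near the line and Ccl1, Ms4a7 and Lad1 farther from it.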

How the data were processed

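Per the labels' protocols, Affymetrix arrays were hybridised with RNA (100 ng) amplified by an IVT Express kit. The authors deposited log2 values, which are RMA summaries from R 3.0.1 per the submitters' processing notes, with settings not stated there. They cover 45101 probe sets on 14 arrays, with array medians from 7.48 to 7.54.

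By the array annotation, 34945 probe sets had 1 gene, 932 had several and 9160 had none, and 64 were controls. RefSeq held 34741 of the first kind. A gene was read from its brightest probe set. It was tested if above the overall median of 7.52 on at least 2 arrays. Of the 53 called genes 30 had another bright probe set, and in 29 all of them had the same direction. In Eif4g3, 1 other read -0.0045. Some with the same direction were near 0, at 0.035 in Zc3h12a and -0.10 in Epcam. The same held for 1 of 2 others in Emp2 (-0.047) and in Slc1a4 (-0.038). Sizes differed too: the others read 0.33 and 0.39 in Ern1 (1.13 as used) and 0.16 in Slc25a12 (0.83 as used). In Hsd17b11 the other was larger, at 1.09 (0.81 as used).

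All 14 arrays and 7 groups were fitted in limma 3.58.1 (R 4.3.3), with the experiment as a block and 6 residual degrees of freedom, 2-sided, and p was adjusted by Benjamini-Hochberg over 12192 genes. The design text names 2 independent experiments. Differences between replicates correlated over genes with r from 0.455 to 0.935 over 21 pairs of groups (0.726 for CpG and TNF), so the replicate numbers pair the arrays. With 2 arrays a group their number limits the precision: the 95% interval had a median half-width of 0.20. The fit was also run on simulated data with independent noise and changes of equal size in both experiments. That run does not cover the gap between experiments seen here. Named genes are called ones whose arrays do not overlap (the 15 that rose most and the 15 that fell most, of which there were 7), members of the gene lists, and others named as values. The comparison, the 29 lists (596 genes) and the promoters were chosen with earlier results of these data known. Solvent contrasts share arrays with the comparison and are given as values.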

Additional observations from a re-analysis of the deposited data

How the results depend on the processing

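The call of 53 genes depended on the pairing and on single arrays. Without the replicate block 1 gene was called, 1 higher, 0 lower and 1 at least 2-fold, and 1 with the inhibitors. Fitting only the 4 compared arrays or only the 6 solvent arrays called 0 genes in limma (1246 and 1064 at an unadjusted p under 0.05), and array weights left 2, both higher and at least 2-fold (Siah2 and Stap1), with 0 lower. Leaving out 1 array in turn gave from 1 to 1211 called, 1 to 527 higher, 0 to 684 lower and 1 to 224 at least 2-fold. The value without 1 array ranged from -0.21 to 1.11 for Acod1, -0.13 to 2.26 for Ch25h, -0.0017 to 1.26 for Gch1 and -0.16 to 1.09 for Serpinb9, below 0 without the CpG array of experiment 1 and highest without that of experiment 2. Reference-gene scaling (Actb, Hprt, Tbp, Sdha, Rplp0, Ywhaz) called 28, 18 of them higher (64.3% against 79.2%) and 7 at least 2-fold. Cyclic loess called 66, 41 higher (62.1%) and 25 lower, and 40 of them were among the 53. Averaging the probe sets of a gene gave 6 lower and 7 at least 2-fold. The other settings (dim-gene filters, all probe sets, trended and robust priors) called from 45 to 68. The cause was not tested. Siah2 and Stap1 were called in all 9 alternatives with every array and the block, and 20 of the 53 in at least 8. At the other end 8 genes were called in fewer than 5 of the 9. These were Jade2 (in 2), Cdc42ep2, Tasp1 and Vrk2 (in 3 each), and Cptp, Dhx40, Gfpt1 and Tmem68 (in 4 each). The difference between the comparisons called 0 genes in every alternative tried. All 53 kept their sign in every alternative that held them. They already had the same sign in both experiments when called, so this count describes them and tests nothing.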

Other observations

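Genes of the Ms4a family, a cluster of 4-span membrane proteins, were read after their values were seen. Of 11 tested members 6 were above 0 in both experiments, against 27.3% of all genes, and these 6 had both CpG arrays above both TNF arrays, against 13.3%. Ms4a4c differed by 2.43 (3.65 in experiment 1 and 1.21 in experiment 2), Ms4a4b by 1.82 (2.91 and 0.74), Ms4a6b by 1.65, Ms4a6c by 1.61 and Ms4a6d by 1.27, none of them called (adjusted p from 0.157 to 0.220), and Ms4a7 by 1.15 (adjusted p = 0.0350). With TNF these 6 genes stood between -0.56 and 0.30 from solvent, and with CpG between 1.09 and 2.25. Ms4a1, the B cell marker CD20, Ms4a2, a chain of the IgE receptor of mast cells, and Ms4a3 lay between -0.05 and -0.02. With CLIK148 plus CpG against CA074Me plus TNF the differences were 2.54 for Ms4a4c and 0.57 for Ms4a7.

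The 11 genes at least 2-fold lower with CpG were, beside Cass4, Spib and Ddr1, Calcb (-1.11), Cldn1 (-1.02), Fut4 (-1.05), Galnt12 (-1.08), Hepacam2 (-1.08), Klrd1 (-1.15), Lpar3 (-1.03) and Pxdc1 (-1.11). Among them Cass4 alone was called. The nucleic acid sensor adaptor Sting1 stood at 9.56 and 10.09 with CpG against 10.46 and 10.46 with TNF (-0.63, adjusted p = 0.129), while the RNA sensors Dhx58, Ifih1 and Ddx58, which are interferon targets, stood at 1.32, 1.08 and 1.00.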
